A study of Mus musculus with 16 samples.

Results

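The genes described here encode the nuclear subunits of the mitochondrial respiratory chain and of ATP synthase. They were taken by name: every gene with an array probe set mapped to exactly 1 symbol that begins with Nduf followed by a, b, c, s or v and a digit (complex I), is Sdha, Sdhb, Sdhc or Sdhd (complex II), begins with Uqcr (complex III), begins with Cox and a digit of 4 to 8 (complex IV), or begins with Atp5 (complex V). This gave 78 of the 12393 genes measured with 1 symbol: 33 in complex I, 4 in complex II, 8 in complex III, 16 in complex IV and 17 in complex V. Their RNA was read on 16 Affymetrix 430A 2.0 mouse arrays, on which each transcript has 1 or more sets of short probes. The cells were J1, a mouse embryonic stem (ES) cell line, kept per the labels on gelatin in serum with leukemia inhibitory factor. One arm held 2 arrays of cells with Tgif1 knocked down (Tgif1 KD) and 2 of cells with a control hairpin (shControl). The other arm held 4 arrays labelled Tgif1 OE and 4 labelled Tgif2 OE, for overexpression, and 4 of cells overexpressing BirA alone (BirA control). BirA is a bacterial biotin ligase, and the labels do not say whether the cells with overexpressed Tgif1 or Tgif2 carried it too. The labels name no hairpin sequence, vector or promoter, and do not say whether a group was 1 clone or whether replicates were separate cultures, so each p-value reflects the spread among these arrays alone, and that spread may be technical.

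The respiratory chain sits in the inner mitochondrial membrane. Complex I takes electrons from NADH and complex II takes them from succinate, both pass them to coenzyme Q, complex III hands them on to cytochrome c, and complex IV gives them to oxygen. Complexes I, III and IV move protons across the membrane, and ATP synthase, complex V, makes ATP as the protons flow back. Most subunits are nuclear genes and a minority are made from mitochondrial DNA; none of the 78 (0) is mitochondrially encoded. ES cells grown with serum and leukemia inhibitory factor are known to use both respiration and glycolysis, and cells in later states of pluripotency lean more on glycolysis. TGIF1 and TGIF2 are homeodomain proteins that repress transcription.

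The targeted genes were read first. Tgif1 was 7.46 and 7.12 log2 on the Tgif1 KD arrays, against 10.71 and 10.66 on the shControl arrays (-3.39 ± 0.10, adjusted p = 3.88e-11). On the arrays labelled Tgif1 OE it was 10.25, 10.14, 10.06 and 10.02, against 10.65, 10.67, 10.70 and 10.74 on the BirA control arrays, so the label was not borne out by this probe set; below, Tgif1 OE and Tgif2 OE name the labels of arrays and not a measured overexpression. On the arrays labelled Tgif2 OE Tgif1 was 10.21, 10.29, 10.31 and 10.27, also below every BirA control (-0.42 ± 0.07, adjusted p = 4.57e-04). Tgif2 was 9.85 and 9.84 on Tgif1 KD, against 8.98 and 9.10 on shControl. It was 8.88, 8.91, 8.77 and 8.69 on arrays labelled Tgif1 OE and 9.30, 9.42, 9.29 and 9.47 on the arrays labelled Tgif2 OE, against 9.35, 9.28, 9.24 and 9.17 on BirA control, which the Tgif2 OE values overlap. Whether either probe set can detect a transgene is not known. The label of ES cells was borne out by its markers: 10 ES cell markers averaged between 11.8 and 12.4 log2 on every array. The 4 columns labelled Tgif2 OE stood apart from the other 12, with medians 0.08 log2 and means 0.11 log2 higher, and the median of all genes moved by 0.12 against BirA control. That shift of 0.12, or -0.10 for the Tgif1 OE label against the Tgif2 OE label, lies in every deposited change involving those arrays, and the larger changes are also given relative to it. In the bulk RNA used here, fewer cells of a type and less RNA per cell cannot be told apart.

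The subunit genes were among the brighter transcripts of these cells. Of the 78, 70 had a mean over 10 log2 across the 16 arrays, and the median of their means was 11.91, against 6.96 for all genes. Brightest were Uqcrb of complex III at 13.73, and Cox6a1 and Cox5b of complex IV at 13.71 and 13.62. Dimmest were 3 tissue-restricted isoforms of complex IV: Cox4i2 at 4.73, Cox8b at 4.97 and Cox6a2 at 6.01. Values of different probe sets are on scales of their own, so this order is one of signal and not of transcript number. No level filter was applied, and all 78 members were tested.

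**Figure D1:**
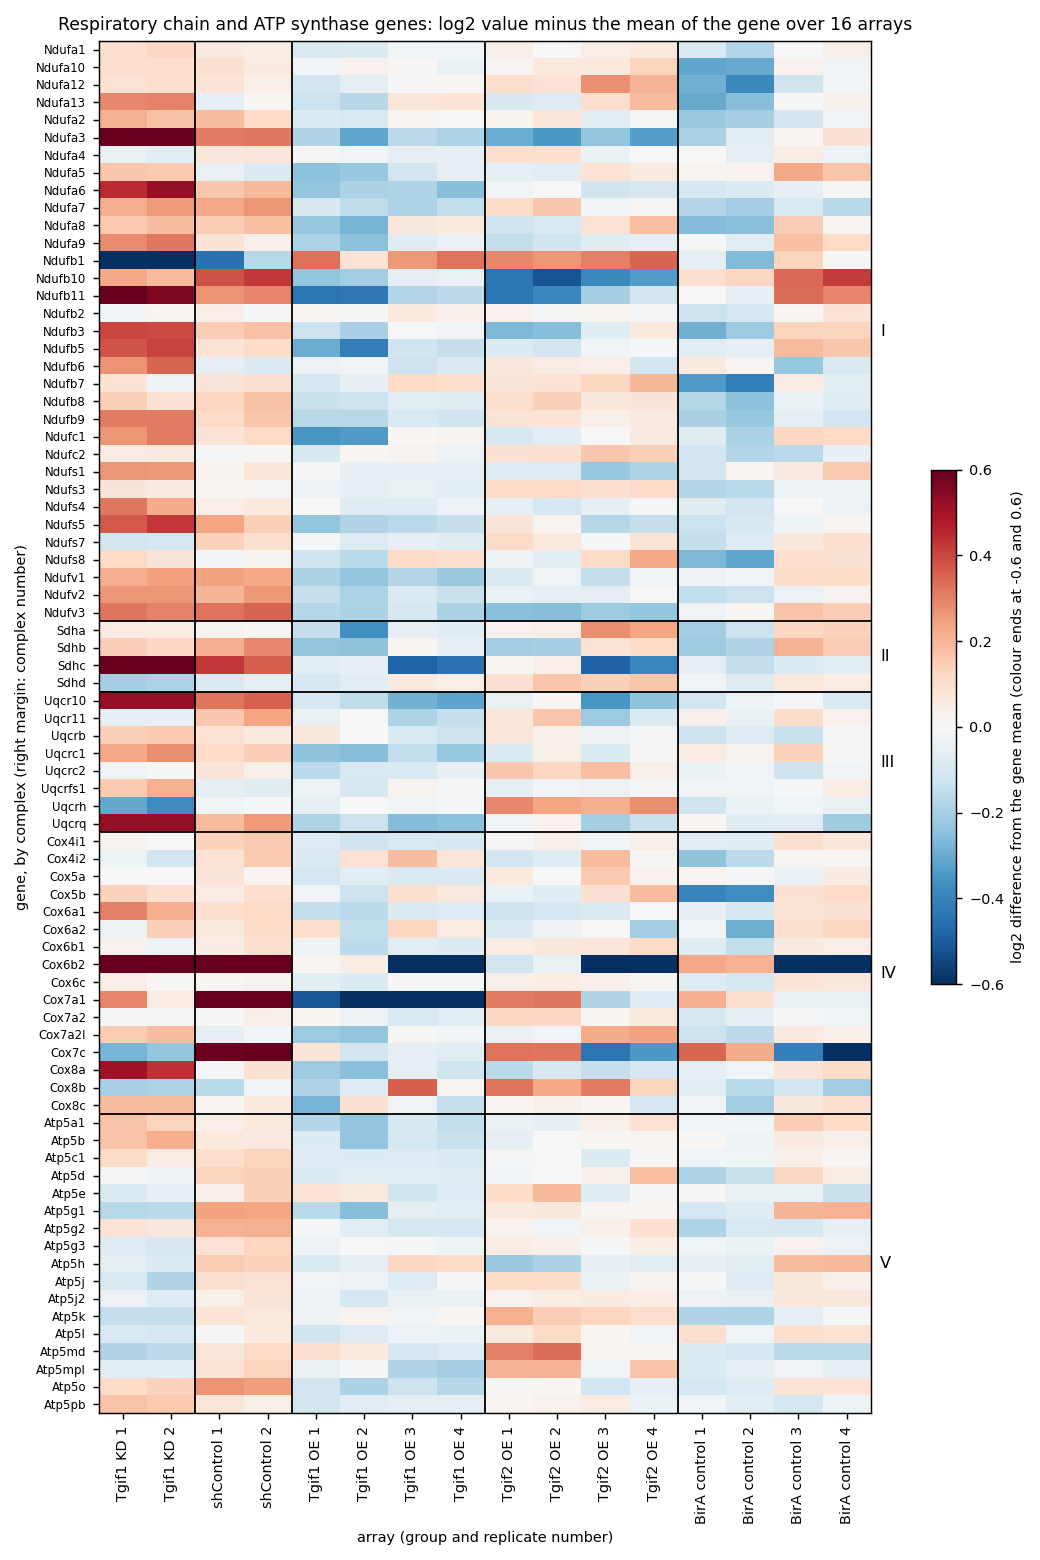
Each cell is the log2 value of 1 gene (rows, grouped by complex I to V) on 1 of the 16 arrays (columns, by group and replicate number) minus the mean of that gene over the 16 arrays, with colour ending at -0.6 and 0.6. Ndufa3 and Cox8a are red on the 2 Tgif1 KD arrays, Ndufb10 and Ndufb11 are below their means on the 8 arrays labelled Tgif1 OE or Tgif2 OE, and many rows change between replicates 1 and 2 and replicates 3 and 4 of the BirA control.

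Under each perturbation some subunit genes were higher and others lower. In Tgif1 KD against shControl 15 of 78 members passed an adjusted p of 0.05 (limma, Benjamini-Hochberg over all genes), 7 higher and 8 lower, or 19.2%, while 25.4% of all genes passed, 12.5% higher and 12.9% lower. On the arrays labelled Tgif1 OE against BirA control 14 passed, 1 higher and 13 lower, or 17.9%, while 20.9% of all genes passed, 11.4% higher and 9.51% lower. On the arrays labelled Tgif2 OE 21 passed, 16 higher and 5 lower, or 26.9%, beside 35.4% of all genes, 28.7% higher and 6.69% lower. In each of these 3 comparisons the share of members called was below that of all genes. Set directly against the Tgif2 OE label, the Tgif1 OE label had 16 members called, 1 higher and 15 lower, or 20.5%, beside 19.7% of all genes, 2.25% higher and 17.4% lower. Medians of the members were 0.01, -0.04, 0.04 and -0.10 log2 in these 4 comparisons, beside -0.05, 0.01, 0.12 and -0.10 over all genes. In all, 42 members were called in at least 1 of the 4 and 36 in none, and no member changed by 2-fold or more (0 of 78) in any.

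In the knockdown the medians of complexes I and V lay on opposite sides of 0. Over all genes the median was -0.05, with 5326 of 12393 above 0, and 12.5% were called higher and 12.9% lower. Complex I had 23 of 33 members above 0 and a median of 0.06 log2. Of these 33, 4 were called higher (12.1%, near the share of all genes) and 1 lower (3.03%). Complex V had 14 of 17 below 0 and a median of -0.15, with 0 called higher and 4 lower (23.5%). Complex III had 2 called higher and 1 lower of 8, complex IV 1 higher and 2 lower of 16, and complex II 0 of 4. The Tgif1 OE label had 9 of its 14 calls in complex I, 1 higher and 8 lower of 33 (3.03% and 24.2%). The shares of all genes with that label were 11.4% higher and 9.51% lower. The label also had 2 lower of 16 in complex IV, 2 of 17 in complex V and 1 of 8 in complex III. These counts describe the complexes and were not tested against each other.

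**Figure D2:**
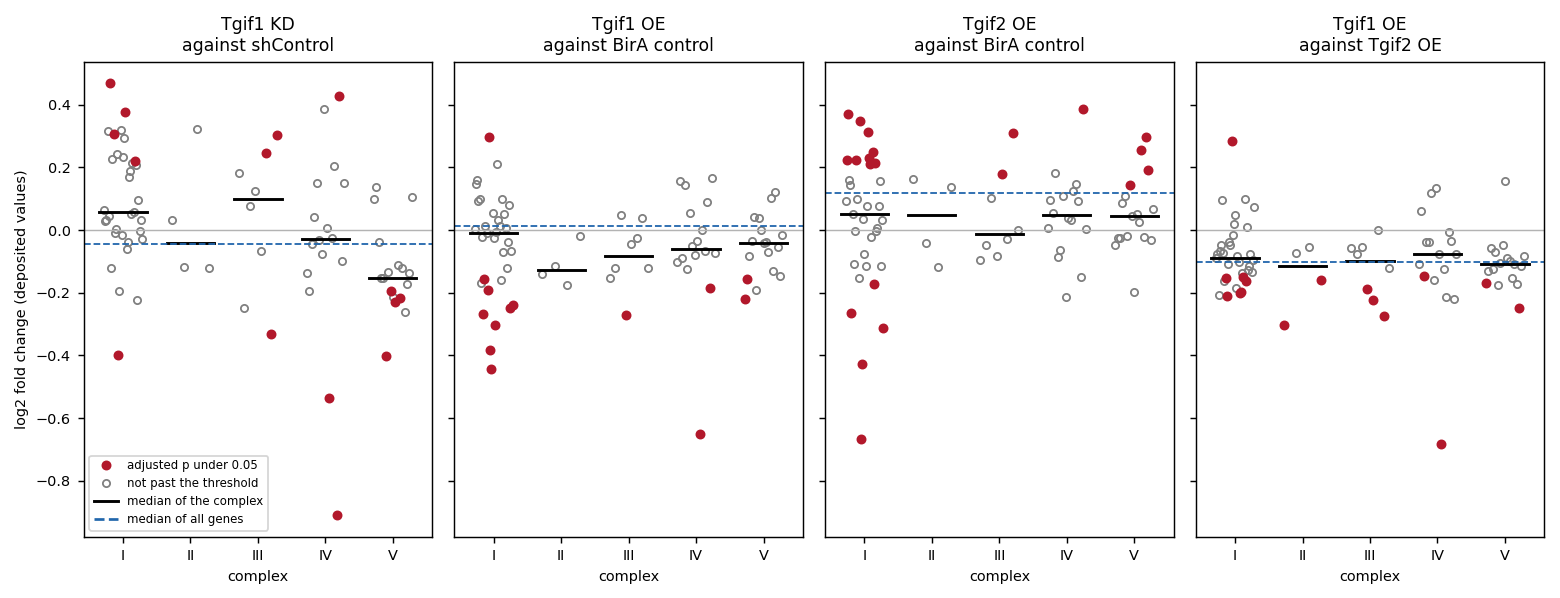
Each point is the log2 fold change of 1 of the 78 genes (vertical axis, deposited values), by complex (horizontal axis), in the 4 comparisons; red points passed an adjusted p of 0.05, the black bar is the median of the complex and the dashed blue line the median of all genes. In the knockdown complex V lies mostly below 0 with a median of -0.15, and the dashed line stands at 0.12 for the arrays labelled Tgif2 OE.

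In complex I Ndufb10, Ndufb11 and Ndufv3 were the 3 members called lower with both overexpression labels. Both comparisons use the same 4 BirA control arrays, so these calls are not independent. The share of all genes called lower with both labels was not counted. Ndufb10, an accessory subunit of the membrane arm, was 10.56, 10.59, 10.73 and 10.75 log2 on arrays labelled Tgif1 OE and 10.35, 10.28, 10.41 and 10.46 on arrays labelled Tgif2 OE, against 10.89, 10.92, 11.13 and 11.21 on BirA control. All 8 arrays with either label lay below all 4 BirA controls. The changes were -0.38 ± 0.08 (SE; adjusted p = 0.00217) for the Tgif1 OE label and -0.67 ± 0.08 (1.63e-05) for the Tgif2 OE label, or -0.79 relative to the median of all genes. Ndufb10 was also the 1 member called higher with the Tgif1 OE label than with the Tgif2 OE label (0.28 ± 0.08, adjusted p = 0.0191; 0.39 relative to the median). That last call was lost without Tgif1 OE 3, Tgif1 OE 4 or Tgif2 OE 2, with adjusted p up to 0.0578, and with replicate pairs as a random block (0.0836).

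Ndufb11, a small accessory subunit of the same arm encoded on the X chromosome, was 11.46, 11.48, 11.73 and 11.75 log2 on arrays labelled Tgif1 OE and 11.47, 11.51, 11.70 and 11.79 on arrays labelled Tgif2 OE, against 11.90, 11.85, 12.23 and 12.20 on BirA control. Groups did not overlap, although replicates 3 and 4 were above replicates 1 and 2 in each of the 3 groups. It fell by 0.44 ± 0.10 (adjusted p = 0.00599) with the Tgif1 OE label and by 0.43 ± 0.10 (0.00486) with the Tgif2 OE label, where the change relative to the median was -0.55. Ndufv3, an accessory subunit of the NADH-binding tip, was 11.26, 11.25, 11.34 and 11.25 on arrays labelled Tgif1 OE and 11.19, 11.18, 11.22 and 11.20 on arrays labelled Tgif2 OE, against 11.41, 11.45, 11.61 and 11.58 on BirA control. Its changes were -0.24 ± 0.05 (0.00456) for the Tgif1 OE label and -0.31 ± 0.05 (4.01e-04) for the Tgif2 OE label (-0.43 relative to the median), with no overlap. These 3 kept both calls when each array was left out in turn and under each of 3 scalings.

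The RefSeq promoter table (build GRCm38.p6) held 64 of the 78 genes. The 250 bases before the start of these 3 genes are printed because the genes fell together under both labels; Uqcrh and Cox7a1, which moved otherwise and are described further on, are set beside them. Sequences run 5′ to 3′ on the strand of the gene, and capitals mark any match, on either strand, to 4 motifs that were searched. The motifs were CTGTCA (the core bound by TGIF proteins), CCGGAAG (ETS factors such as GABPA), AAGATGGC (YY1) and the consensus palindrome of NRF1; none of them overlaps another in the sequences shown.
Ndufb10, promoter at chr17:24724424-24724673, minus strand: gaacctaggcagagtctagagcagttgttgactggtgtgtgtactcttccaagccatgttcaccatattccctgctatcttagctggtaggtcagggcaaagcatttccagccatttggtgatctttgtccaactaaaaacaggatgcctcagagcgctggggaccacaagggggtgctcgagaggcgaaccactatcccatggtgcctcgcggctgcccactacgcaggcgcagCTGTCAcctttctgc
Ndufb11, promoter at chrX:20617620-20617869, minus strand: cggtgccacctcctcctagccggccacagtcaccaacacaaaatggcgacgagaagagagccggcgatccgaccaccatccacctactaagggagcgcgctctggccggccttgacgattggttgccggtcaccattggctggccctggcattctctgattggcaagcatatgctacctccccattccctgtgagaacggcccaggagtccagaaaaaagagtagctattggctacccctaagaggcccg
Ndufv3, promoter at chr17:31519865-31520114, plus strand: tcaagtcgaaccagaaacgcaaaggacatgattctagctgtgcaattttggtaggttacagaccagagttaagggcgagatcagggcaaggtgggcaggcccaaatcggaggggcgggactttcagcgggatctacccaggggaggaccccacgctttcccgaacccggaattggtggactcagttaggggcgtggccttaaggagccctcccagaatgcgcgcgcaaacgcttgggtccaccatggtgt
Uqcrh, promoter at chr4:116075071-116075320, minus strand: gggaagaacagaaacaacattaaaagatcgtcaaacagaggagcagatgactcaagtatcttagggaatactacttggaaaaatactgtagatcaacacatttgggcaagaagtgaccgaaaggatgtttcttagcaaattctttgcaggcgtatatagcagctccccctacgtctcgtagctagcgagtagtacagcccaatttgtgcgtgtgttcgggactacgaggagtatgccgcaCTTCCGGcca
Cox7a1, promoter at chr7:30183921-30184170, plus strand: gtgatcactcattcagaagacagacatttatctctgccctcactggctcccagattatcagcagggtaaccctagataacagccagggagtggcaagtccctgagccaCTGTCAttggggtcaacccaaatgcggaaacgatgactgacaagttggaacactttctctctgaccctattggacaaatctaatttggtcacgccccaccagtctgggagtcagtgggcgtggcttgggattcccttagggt
CTGTCA stood in Ndufb10 with its first base 15 bases before the start and in Cox7a1 142 bases before it, and the ETS letters (as CTTCCGG) in Uqcrh 10 bases before it. Over the 64 members CTGTCA was found in 12 (18.8%), against 18.0% of 27025 genes with a promoter. The ETS letters were in 12 (18.8%), against 7.83% of all genes, the NRF1 palindrome in 3 (4.69%: Atp5g2, Atp5k and Cox6a1), against 0.877%, and the YY1 letters in 1 (1.56%, Atp5j), against 1.83%. A match is a description of letters and not a binding site.

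In the knockdown these 3 genes did not pass the threshold in the fit without a block. Ndufb11 was 12.54 and 12.46 log2 on Tgif1 KD, against 12.17 and 12.19 on shControl (0.32 ± 0.15, adjusted p = 0.126). With the replicate number as a block Ndufb11 passed (adjusted p = 0.00346). Ndufb10 was 11.02 and 10.98 on Tgif1 KD, against 11.18 and 11.22 on shControl (-0.19 ± 0.11, 0.218), and Ndufv3 differed by -0.03 ± 0.08 (0.838).

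Ndufa3, another accessory subunit, had the largest knockdown change in complex I. It was 12.40 and 12.35 log2 on Tgif1 KD arrays, against 11.90 and 11.91 on shControl, a rise of 0.47 ± 0.09 (1.38-fold, adjusted p = 0.00102) that held when each of the 4 arrays was left out. In the other arm it was 11.42, 11.28, 11.44 and 11.41 on arrays labelled Tgif1 OE and 11.30, 11.25, 11.36 and 11.27 on arrays labelled Tgif2 OE, against 11.41, 11.53, 11.61 and 11.69 on BirA control. The values labelled Tgif2 OE lay below every BirA control (-0.27 ± 0.06, adjusted p = 0.00417; -0.38 relative to the median), and those labelled Tgif1 OE overlapped them. The Tgif1 OE change of -0.17 ± 0.06 had an adjusted p of 0.0667, and of 0.0464 with the replicate number as a block.

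Ndufb1, an accessory membrane-arm subunit read by a dim probe set, ran the opposite way. It was 7.02 and 6.95 log2 on Tgif1 KD, against 7.24 and 7.52 on shControl, and fell by 0.40 ± 0.12 (adjusted p = 0.0243). With the Tgif1 OE label it was 8.02, 7.78, 7.95 and 8.02 and on arrays labelled Tgif2 OE 7.98, 7.96, 7.99 and 8.04, against 7.63, 7.43, 7.82 and 7.70 on BirA control. The lowest Tgif1 OE array lay below the highest BirA control, while the Tgif2 OE arrays lay above them all. The rises were 0.30 ± 0.09 (0.0219) for the Tgif1 OE label and 0.35 ± 0.09 for the Tgif2 OE label (0.00577; 0.23 relative to the median), and the second was lost after centring each array on its median (adjusted p = 0.0546). Its knockdown call was lost without Tgif1 KD 1, Tgif1 KD 2 or shControl 2 (adjusted p up to 0.250), and its Tgif1 OE call without Tgif1 OE 1, Tgif1 OE 4 or BirA control 2 (up to 0.0706).

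Among the other complex I calls, in the knockdown Ndufb6 (0.38 ± 0.09), Ndufa6 (0.31 ± 0.07) and Ndufs4 (0.22 ± 0.07) were higher; all are accessory subunits, and Ndufs4 is needed for stable complex I in mice and humans. The 3 probe sets of Ndufs4 disagreed: the one used, with a mean of 10.32 log2, was higher, and a dimmer one with a mean of 6.77 was lower by 1.26, so the direction of Ndufs4 is uncertain. With the Tgif1 OE label Ndufb5 (-0.30 ± 0.08), Ndufa5 (-0.27 ± 0.07), Ndufv1 (-0.25 ± 0.05), Ndufa9 (-0.19 ± 0.06) and Ndufa6 (-0.16 ± 0.05) were lower. Ndufv1 is the core subunit that binds NADH and the flavin, and it was 11.17, 11.13, 11.19 and 11.14 log2 on arrays labelled Tgif1 OE, against 11.33, 11.35, 11.48 and 11.47 on BirA control, without overlap. Ndufa4, whose name places it here although its protein is now counted with complex IV, changed by -0.12 ± 0.07 in Tgif1 KD, -0.02 ± 0.05 with the Tgif1 OE label and 0.05 ± 0.05 with the Tgif2 OE label, and none passed.

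**Figure D3:**
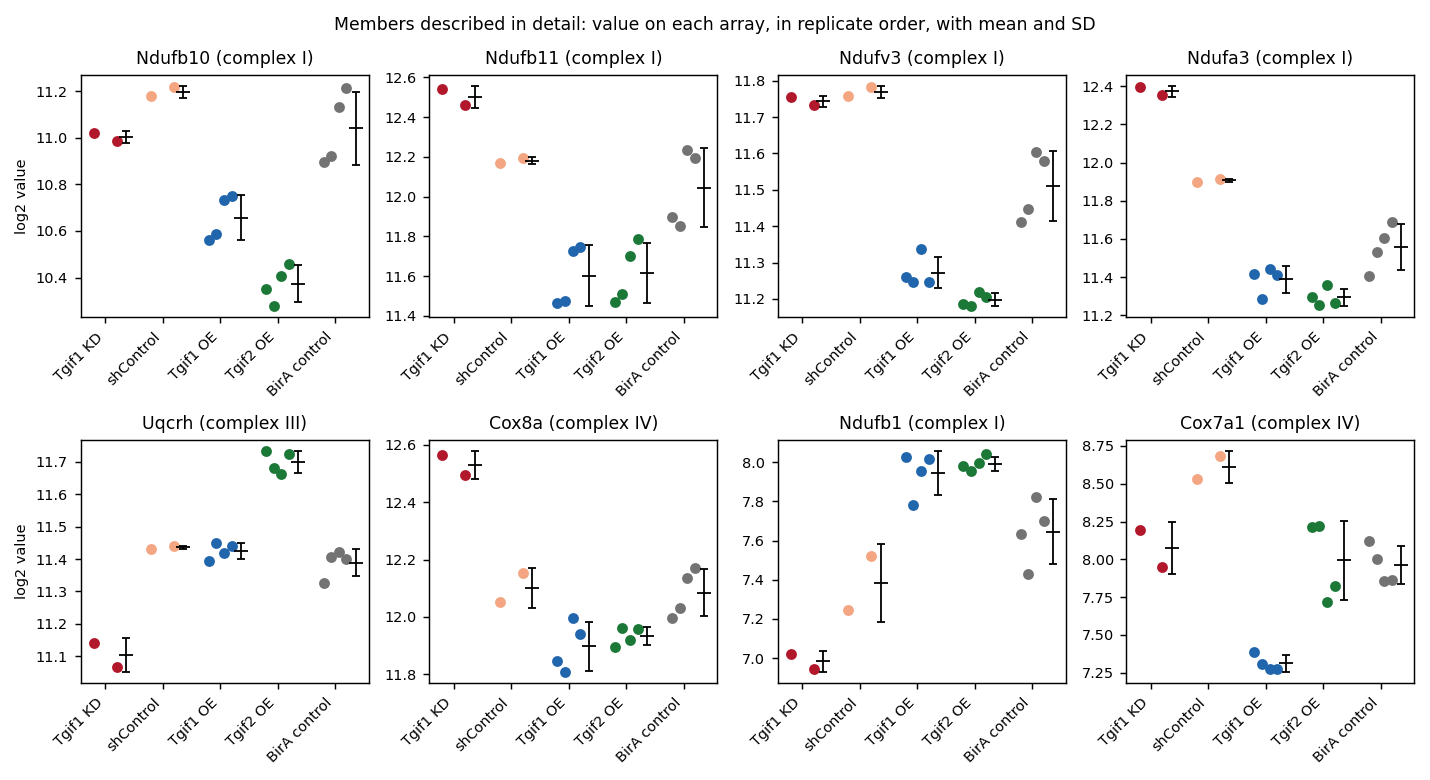
Each panel gives the log2 value of 1 gene on every array (points, in replicate order within the group), with the mean and SD of the group in black. Ndufb10, Ndufb11 and Ndufv3 are lower on the 8 arrays labelled Tgif1 OE or Tgif2 OE than on BirA control, Ndufa3 and Cox8a are higher on Tgif1 KD than on shControl, and Cox7a1 is lowest on the arrays labelled Tgif1 OE.

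Complex II, succinate dehydrogenase, which also works in the citric acid cycle, had no call (0 of 4) against either control. Sdhc, a membrane anchor that binds coenzyme Q, was 11.36 and 11.43 log2 on Tgif1 KD, against 11.11 and 11.04 on shControl (0.32 ± 0.17, adjusted p = 0.197). In the overexpression arm both labels split by replicate number: replicates 1 and 2 were 10.61 and 10.63 with the Tgif1 OE label and 10.69 and 10.72 with the Tgif2 OE label, and replicates 3 and 4 were 10.20 and 10.24 with the Tgif1 OE label and 10.20 and 10.29 with the Tgif2 OE label. BirA control ran from 10.54 to 10.62 over its 4 arrays. Sdha, the flavoprotein that oxidizes succinate, was 0.30 ± 0.09 lower (adjusted p = 0.0349) with the Tgif1 OE label than with the Tgif2 OE label, and Sdhd, the other anchor, 0.16 ± 0.05 lower (0.0495). Relative to the median of all genes these were -0.20 and -0.05, and neither passed after quantile normalization. Sdha lost its call without Tgif1 OE 1 or 2 or Tgif2 OE 3 or 4 (adjusted p up to 0.0982), and Sdhd without any array but Tgif1 OE 3 (up to 0.126). With the replicate number as a block Sdha (0.16, adjusted p = 0.0354) and Sdhd (0.14, 0.0328) also passed in Tgif2 OE against BirA control, where they had 0.191 and 0.0550 without it.

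In complex III Uqcrh, the acidic hinge protein that helps cytochrome c dock, fell in the knockdown. It was 11.14 and 11.07 log2 on Tgif1 KD, against 11.43 and 11.44 on shControl (-0.33 ± 0.06, adjusted p = 0.00141), and kept this call when each array was left out. On the other arm it was 11.39, 11.45, 11.42 and 11.44 on arrays labelled Tgif1 OE and 11.73, 11.68, 11.66 and 11.72 on arrays labelled Tgif2 OE, against 11.33, 11.41, 11.42 and 11.40 on BirA control. The Tgif2 OE values were above both other groups, by 0.31 ± 0.05 over BirA control (1.28e-04; 0.19 relative to the median), a call that held under each of 3 scalings and each array left out. The direct change of -0.27 ± 0.05 (0.00118; -0.17 relative to the median) with the Tgif1 OE label against the Tgif2 OE label was not called after quantile normalization.

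Uqcrc1, a core protein of complex III, showed another pattern. It was 11.91, 11.90, 12.01 and 11.93 log2 on arrays labelled Tgif1 OE, against 12.21, 12.18, 12.30 and 12.16 on BirA control, a fall of 0.27 ± 0.05 (adjusted p = 0.00141) with no overlap. In the other arm it was 12.39 and 12.44 on Tgif1 KD, against 12.27 and 12.31 on shControl (0.12 ± 0.07, 0.245). Uqcrfs1, the Rieske iron-sulfur protein, was 11.56 and 11.62 on Tgif1 KD, against 11.35 and 11.33 on shControl (0.25 ± 0.06, 0.0106). Uqcrq, a small subunit near cytochrome b, was 0.30 ± 0.09 higher in Tgif1 KD (0.0218), but its 3 dimmer probe sets were lower without passing, and the mean of its probe sets gave -0.07, so its direction is uncertain.

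Complex IV holds most of the isoform pairs among these genes, a broadly expressed form and a tissue-restricted one. Cox7a1, the heart and skeletal muscle isoform of subunit 7a, was 8.19 and 7.95 log2 on Tgif1 KD, against 8.53 and 8.69 on shControl (-0.54 ± 0.15, adjusted p = 0.0183). On the 4 arrays labelled Tgif1 OE it was 7.39, 7.31, 7.27 and 7.27, against 8.12, 8.004, 7.86 and 7.86 on BirA control (-0.65 ± 0.11, 5.74e-04). Thus Cox7a1 was lower than its control on every array of both groups, and it was the only member of the 78 called in the same direction in both. On arrays labelled Tgif2 OE it was 8.21, 8.22, 7.72 and 7.82, which overlaps BirA control (0.03 ± 0.11, adjusted p = 0.833), and the arrays labelled Tgif1 OE were lower than those labelled Tgif2 OE by 0.68 ± 0.11 (8.47e-04; -0.58 relative to the median), in each of 3 scalings. The knockdown call was lost without Tgif1 KD 2 or shControl 2 (adjusted p up to 0.156), while both calls for the Tgif1 OE label held. Cox7a2, the broadly expressed partner, changed by -0.03 in Tgif1 KD, 0.00 with the Tgif1 OE label and 0.13 (0.01 relative to the median) with the Tgif2 OE label, and none passed.

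Cox8a, the broadly expressed form of the smallest subunit, was 12.56 and 12.495 log2 on Tgif1 KD, against 12.05 and 12.15 on shControl. It rose by 0.43 ± 0.08 (1.35-fold, adjusted p = 0.00131) and kept the call without each array. Of its 3 probe sets both bright ones rose and 1 with a mean of 4.02 log2 was called lower, and the call was lost in the mean of the 3. With the Tgif1 OE label it was 11.85, 11.81, 11.997 and 11.94, against 11.998, 12.03, 12.14 and 12.17 on BirA control (-0.19 ± 0.06, 0.0354). That call was lost without Tgif1 OE 1, 2 or 4 or BirA control 3 or 4 (up to 0.101). The Tgif2 OE change of -0.15 ± 0.06 (-0.27 relative to the median) had an adjusted p of 0.0583, and of 0.0379 with the replicate number as a block.

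Among the other isoforms 1 was called against a control. Cox8b, a muscle form, was 5.29, 5.20, 5.28 and 5.10 log2 on arrays labelled Tgif2 OE, against 4.90, 4.81, 4.86 and 4.77 on BirA control (0.39 ± 0.09, adjusted p = 0.00524; 0.27 relative to the median), and was not called after quantile normalization or with replicate pairs as a random block (adjusted p = 0.0562). Cox4i2, Cox6a2 and Cox8c passed against no control, nor did their partners Cox4i1 and Cox6a1, and Cox6b1, the partner of Cox6b2, did not pass either. When probe sets were fitted singly, 1 of the 2 for Cox6a1 was called higher in the knockdown. In that fit 1 was called lower with the Tgif1 OE label and 1 lower with the Tgif2 OE label. With the replicate number as a block Cox4i2 passed for the Tgif1 OE label (0.16, adjusted p = 0.0453, against 0.214 without it). Cox6b2, known as a testis form, was 9.20 and 9.25 on Tgif1 KD, against 8.84 and 8.84 on shControl; these do not overlap, but the SE, which all 5 groups share, was wide (0.39 ± 0.40, 0.539). It split by replicate number in the other arm, with 7.91 and 7.94, then 7.18 and 7.11, on arrays labelled Tgif1 OE, 7.78 and 7.85, then 6.92 and 7.05, on arrays labelled Tgif2 OE, and 8.12 and 8.10, then 7.09 and 7.14, on BirA control. Its change for the Tgif2 OE label (-0.21, or -0.33 relative to the median) had an adjusted p of 0.585, and of 0.0125 with the block. With the block the knockdown change of Cox6b2 had an adjusted p of 0.00394, against 0.539 without it.

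Cox7c, a small subunit with no isoform, had the largest knockdown change of the 78 (-0.91 log2) but also a wide spread. Its probe set was dim, at 6.35 and 6.40 log2 on Tgif1 KD, against 7.22 and 7.35 on shControl (-0.91 ± 0.30, adjusted p = 0.0363). On BirA control it was 6.97, 6.85, 6.22 and 5.96, so 4 arrays of 1 group spanned more than the knockdown change. That spread followed the replicate pairs: the later pair minus the earlier was -0.82 on BirA control. This difference was -0.71 with the Tgif2 OE label and -0.04 with the Tgif1 OE label. The SD was 0.03 on Tgif1 KD and 0.09 on shControl. Fitted singly, both probe sets of Cox7c were called lower in the knockdown. The knockdown call of the main fit was kept with the replicate number as a block (adjusted p = 0.00437). The call was lost without any 1 of the 4 knockdown-arm arrays (adjusted p up to 0.160).

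In complex V the knockdown calls were all falls. The c subunit, which forms the rotating ring, is made by Atp5g1, Atp5g2 and Atp5g3 as the same mature protein. Atp5g1 was 12.16 and 12.17 log2 on Tgif1 KD, against 12.57 and 12.56 on shControl (-0.40 ± 0.11, adjusted p = 0.0113). Atp5g3 was 13.35 and 13.32 on Tgif1 KD, against 13.51 and 13.55 on shControl (-0.20 ± 0.06, 0.0293), and Atp5g2 was 12.14 and 12.13 on Tgif1 KD, against 12.27 and 12.27 on shControl (-0.13 ± 0.07, 0.179). Knockdown arrays lay below control arrays for each of the 3 genes, and 2 of them passed, though neither call held with an array left out. The share of all genes separated in this way was not counted. Over all genes 7067 of 12393 changes were below 0 in the knockdown. Atp5j, coupling factor 6 of the stalk (-0.23 ± 0.08, 0.0357), and Atp5k, subunit e of the membrane part (-0.22 ± 0.07, 0.0444), fell as well. Atp5k was not called with the replicate number as a block (adjusted p = 0.0517). The catalytic head did not follow: Atp5a1, the alpha subunit, was 0.10 ± 0.08 higher (0.411) and Atp5b, the catalytic beta subunit, 0.14 ± 0.07 higher (0.170).

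It was those head subunits that fell on arrays labelled Tgif1 OE. Atp5a1 was 12.87, 12.81, 12.95 and 12.90 log2 with that label, against 13.02, 13.03, 13.19 and 13.16 on BirA control (-0.22 ± 0.06, adjusted p = 0.0128). Atp5b was 13.21, 13.06, 13.18 and 13.16 with the Tgif1 OE label, against 13.30, 13.26, 13.34 and 13.33 on BirA control (-0.16 ± 0.05, 0.0358). Neither gene overlapped between the groups, and Atp5a1 kept its call without each array, while Atp5b lost it without Tgif1 OE 2, 3 or 4 or BirA control 1, 3 or 4 (up to 0.107). With replicate pairs as a random block neither was called (adjusted p = 0.0681 for Atp5a1 and 0.218 for Atp5b), and Atp5a1 was not called with the mean of its probe sets. With the Tgif2 OE label 4 of the 17 complex V genes were called higher, Atp5g2 and 3 small subunits of the membrane part: Atp5md by 0.30 ± 0.08 (0.00828), Atp5k by 0.26 ± 0.05 (0.00163) and Atp5mpl by 0.19 ± 0.06 (0.0253). Relative to the median of all genes these were 0.18, 0.14 and 0.07, and none of the 3 passed after quantile normalization. Atp5j2 (0.03) and Atp5l (-0.02), further small subunits of that part chosen after their values were seen, did not pass as deposited.

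How far the calls rested on single arrays is given by arm, and the counts of the arms cannot be set against each other. Leaving out 1 array left 1 in a knockdown group, while in the overexpression arm it left the other array of its replicate pair. These pairs, replicates 1 and 2 and replicates 3 and 4, had a fitted correlation of 0.55 within a pair. In the knockdown, where a lone array left in a group was assumed to vary like those of other groups, 3 of 15 calls held in all 4 fits (Ndufa3, Cox8a and Uqcrh), and the count was 7 without Tgif1 KD 1, 4 without Tgif1 KD 2, 8 without shControl 1 and 4 without shControl 2. Atp5g1, Atp5g3, Atp5j, Atp5k and Uqcrq lost their calls in each fit (adjusted p up to 0.207). Ndufb6 and Uqcrfs1 lost theirs without Tgif1 KD 2 or shControl 2 (up to 0.0852), Ndufa6 without Tgif1 KD 2 (0.0506), and Ndufs4 without Tgif1 KD 1, shControl 1 or shControl 2 (up to 0.195). For the Tgif1 OE label 9 of 14 held in all 8 fits: Cox7a1, Ndufb10, Ndufb11, Ndufb5, Uqcrc1, Ndufa5, Ndufv1, Ndufv3 and Atp5a1. Ndufa6 lost its call without any array but BirA control 1 (up to 0.0993), and Ndufa9 without Tgif1 OE 1, 2 or 3 or BirA control 1, 3 or 4 (up to 0.138).

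RNA quality moved with the knockdown. The difference between the 5′ and 3′ control probe sets of Gapdh was -0.10 and -0.08 log2 on Tgif1 KD, against -0.21 and -0.22 on shControl, and that of Actb -0.52 and -0.49 on Tgif1 KD, against -0.61 and -0.67 on shControl. Each knockdown array was above each control array, and the part of this in the knockdown calls cannot be told apart from that of the knockdown. Other cell types were read by marker lists. In the knockdown 1 of 10 ES cell markers was higher, with list means per array of 12.41 to 12.43 log2 on Tgif1 KD, against 12.20 to 12.22 on shControl. There 2 of 13 fibroblast markers were higher and 1 lower, with means of 5.28 to 5.33 on Tgif1 KD, against 5.39 to 5.42 on shControl. With the Tgif1 OE label 6 of 13 fibroblast markers were higher and 1 lower than on BirA control, with list means per array of 5.47 to 5.87 log2, against 4.97 to 5.21 on BirA control. With that label 5 of 10 ES cell markers were lower, with means of 11.8 to 12.1, against 12.1 to 12.3 on BirA control. With the Tgif2 OE label 6 of 13 fibroblast markers were higher (5.37 to 5.76), and of the ES cell markers 2 were higher and 1 lower. Striated muscle markers, where Cox7a1 and Cox8b are known to be high, were called lower for 2 of 7 in the knockdown (4.65 to 4.67, against 4.92 to 5.0008 on shControl) and higher for 3 of 7 with the Tgif1 OE label and 2 of 7 with the Tgif2 OE label (5.24 to 5.46 and 5.15 to 5.36, against 4.89 to 5.05 on BirA control). Of 7 blood markers 1 was called in the knockdown, 2 with the Tgif1 OE label and 1 with the Tgif2 OE label. Beside these marker counts, 12.5% of all genes were higher and 12.9% lower in the knockdown, and 11.4% and 9.51% with the Tgif1 OE label. With the Tgif2 OE label it was 28.7% and 6.69%, and the marker means there carry the upward shift of those columns. Relative to the median of all genes, the Tgif2 OE list medians were 0.18 for fibroblast, 0.10 for blood, 0.01 for striated muscle and -0.03 for ES cell markers. The part of these marker changes in the changes of the subunit genes was not tested.

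No array is common to the knockdown comparison and to that of the Tgif1 OE label, so the changes could be set against each other in 1 contrast. The knockdown change minus the Tgif1 OE change passed for 19 of 78 members, 15 positive and 4 negative, beside 27.6% of all genes, 13.0% positive and 14.6% negative. Its median was 0.01 log2 for the members and -0.06 for all genes. Complex I held 8 of the positive differences: Ndufb11 (0.76 ± 0.18, adjusted p = 0.00470), Ndufa3 (0.64 ± 0.11, 3.85e-04), Ndufb5 (0.59 ± 0.13, 0.00342), Ndufa5, Ndufa6, Ndufa9, Ndufb6 and Ndufs5. Complex III held 3 (Uqcrq at 0.42, Uqcrc1 at 0.40 and Uqcrfs1 at 0.27), complex IV 2 (Cox8a at 0.61 ± 0.10, 3.38e-04, and Cox6a1 at 0.27) and complex V the head subunits Atp5a1 (0.32) and Atp5b (0.29). The negative differences were Ndufb1 (-0.70 ± 0.15, 0.00248), Atp5md (-0.38), Uqcrh (-0.37) and Atp5k (-0.32). Of 4 members called in both comparisons 3 went in opposite directions (Cox8a, Ndufa6 and Ndufb1) and 1 in the same (Cox7a1); these 4 are 26.7% of the knockdown calls and 28.6% of the Tgif1 OE calls. Over all genes 1076 were called in both (34.2% and 41.6%), 728 opposite and 348 the same. Signs were opposite for 55.1% of the members and for 55.1% of all genes.

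The difference was called for 11 of the 19 whichever of the 12 arrays was left out. Atp5a1, Atp5b, Atp5k, Ndufb6 and Uqcrfs1 lost it only without a knockdown-arm array (adjusted p up to 0.0930), and Atp5md, Cox6a1 and Ndufs5 also without arrays of the overexpression arm (up to 0.183). The count was 11 without Tgif1 KD 2 or shControl 1 and 12 without shControl 2. With replicate pairs as a random block the difference was not called for Atp5b, Cox6a1, Ndufb6, Ndufs5 and Uqcrfs1 (adjusted p of 0.0534 to 0.0877). For Cox7c the difference of -0.9987 ± 0.37 had an adjusted p of 0.0557, and of 0.00758 with the replicate number as a block.

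**Figure D4:**
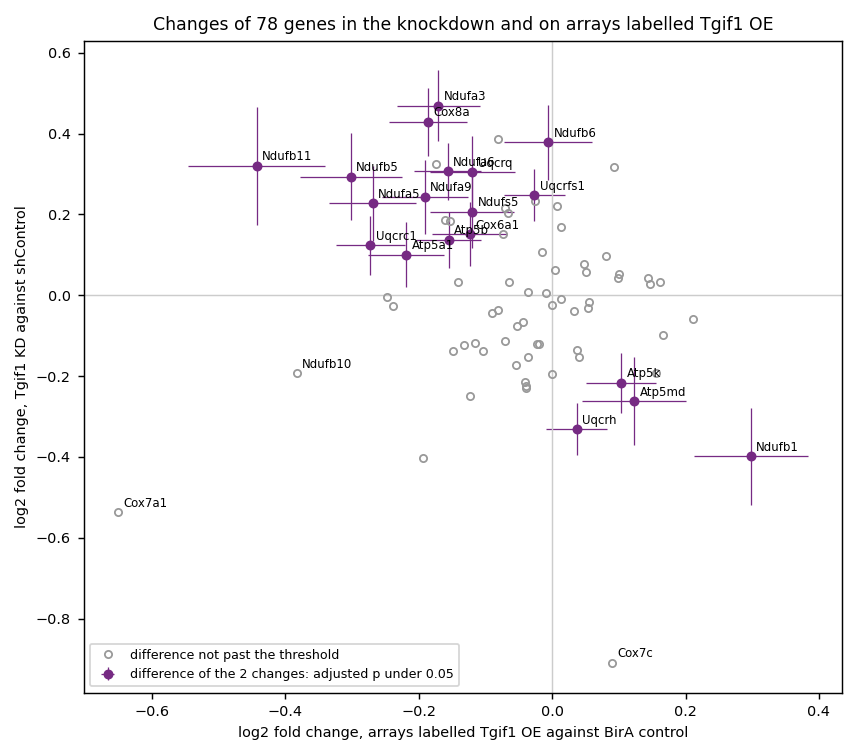
Each point is 1 of 78 genes, with its log2 fold change in Tgif1 KD against shControl (vertical axis) and on arrays labelled Tgif1 OE against BirA control (horizontal axis); purple points, with SE bars, are the 19 for which the difference of the changes passed an adjusted p of 0.05. Cox8a and Ndufa3 lie upper left, Ndufb1 lower right and Cox7a1 lower left.

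Calls on the arrays labelled Tgif2 OE depended on the scaling. With deposited values 16 members were higher and 5 lower than BirA control, and after quantile normalization of all columns 3 were higher and 21 lower, beside 13.0% and 14.1% of all genes. Called the same way as deposited, after quantile normalization and after centring each array on its median were Ndufb10, Ndufb11, Ndufv3, Ndufa3 and Ndufs1, all lower, and Ndufa12 and Uqcrh, both higher. Ndufa12, an accessory subunit of complex I, was 11.997, 11.98, 12.16 and 12.09 log2 on arrays labelled Tgif2 OE, against 11.60, 11.51, 11.77 and 11.87 on BirA control, without overlap (0.37 ± 0.07, adjusted p = 0.00153; 0.25 relative to the median). Ndufs1, the large iron-sulfur core subunit, was 11.14, 11.14, 10.99 and 11.03 with the Tgif2 OE label, against 11.11, 11.23, 11.27 and 11.37 on BirA control, which overlap (-0.17 ± 0.06, 0.0369; -0.29 relative to the median). It lost the call without BirA control 2, 3 or 4 or Tgif2 OE 3 or 4 (up to 0.112). With replicate pairs as a random block Ndufs1 was not called (adjusted p = 0.151). Ndufb1, Cox8b, Atp5g2, Atp5mpl, Ndufa10 and Uqcrc2 also lost their calls for the Tgif2 OE label in that fit (0.0562 to 0.168). Ndufb7 (0.31), Ndufc2 (0.25), Ndufb8 (0.23), Ndufa7 (0.23) and Ndufa10 (0.22), all accessory subunits, Ndufb9 (0.21), Ndufs3 of the core (0.21), Uqcrc2 of complex III (0.18) and Atp5g2 (0.14) rose as deposited but were not called after quantile normalization. Relative to the median of all genes they lay between 0.02 and 0.19. Single arrays decided 4 further calls. These were BirA control 1 or 2 or Tgif2 OE 1, 2 or 4 for Atp5mpl (up to 0.0690), BirA control 1, 2 or 3 or Tgif2 OE 1, 3 or 4 for Atp5g2 (up to 0.0997), BirA control 1 or 2 or Tgif2 OE 4 for Ndufa10 (up to 0.0903), and BirA control 1 or 2 for Ndufb7 (up to 0.0534). The 4 members called both here and in the knockdown, Ndufa3, Ndufb1, Uqcrh and Atp5k, had opposite signs in the 2 comparisons with deposited values. They are 26.7% of the knockdown calls and 19.0% of the Tgif2 OE calls, while over all genes 1482 were called in both (47.1% and 33.8%), 1034 with opposite signs.

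**Figure D5:**
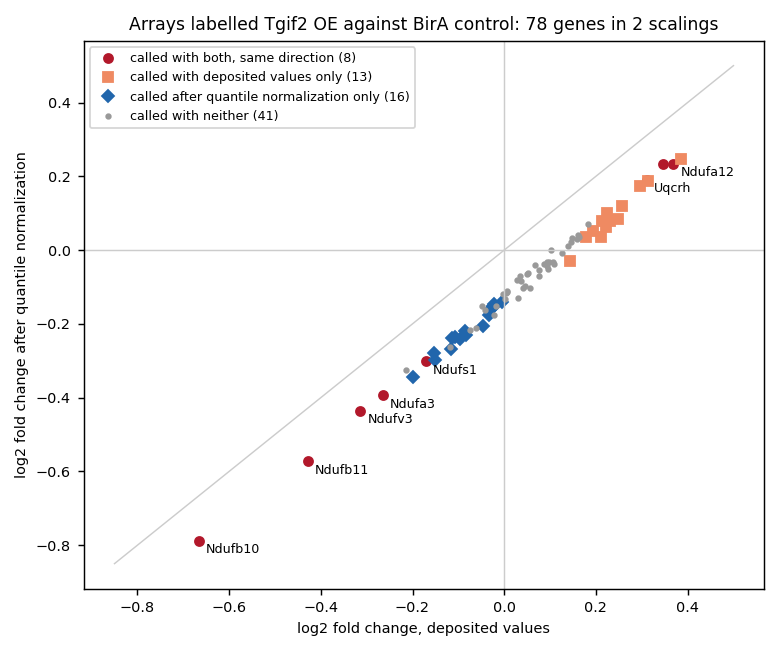
Each point is 1 of 78 genes on arrays labelled Tgif2 OE against BirA control, with its log2 fold change from deposited values (horizontal axis) and after quantile normalization (vertical axis); the grey diagonal marks equality. All points lie below the diagonal; 8 genes were called with both, 13 with deposited values only, 16 after quantile normalization only and 41 with neither.

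Set against each other, the arrays labelled Tgif1 OE and Tgif2 OE gave 1 member higher and 15 lower as deposited, but 5 higher and 1 lower after quantile normalization, beside 4.97% and 5% of all genes. Ndufb10 (higher) and Cox7a1 (lower) were called in each of 3 scalings, but with replicate pairs as a random block only Cox7a1 and Uqcrh were called, and Ndufb10 was not (adjusted p = 0.0836). Of the 16 deposited calls 6 held whichever array was left out (Cox7a1, Uqcrh, Uqcrc2, Ndufa7, Ndufb9 and Atp5mpl). The count was 10 without Tgif1 OE 1 or Tgif2 OE 1, 9 without Tgif1 OE 2 or 4, 7 without Tgif2 OE 2 and 8 without Tgif2 OE 4.

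Replicates 1 and 2 of the overexpression arm differed from replicates 3 and 4, and the subunit genes took part in this. The labels give no reason for it, and the split was seen in the data. On BirA control 68 of 78 members were higher in replicates 3 and 4 than in 1 and 2, by a median of 0.14 log2, against 0.05 over all genes; in complex I it was 32 of 33. On arrays labelled Tgif1 OE the median was 0.04 and on arrays labelled Tgif2 OE -0.01, against 0.01 for all genes in both. The same sign in all 3 groups was seen for 33 members upward and 7 downward, and this was not counted over all genes. The rise on BirA control was not particular to the members. There 7401 of 12393 genes were higher in replicates 3 and 4, as were 60 of 74 mitochondrial ribosomal protein genes, with a median of 0.15. Cox5b shows the size of the split on BirA control, with 13.22 and 13.25, then 13.71 and 13.74. The 5′ to 3′ difference of Gapdh split likewise, at -0.24, -0.34, -0.02 and -0.08 on arrays labelled Tgif1 OE, -0.17, -0.19, -0.04 and -0.06 on arrays labelled Tgif2 OE, and -0.11, -0.13, -0.05 and -0.04 on BirA control; its part was not tested.

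Within these pairs the Tgif1 OE label gave 6 members higher and 13 lower in replicates 1 and 2 (beside 15% and 11.2% of all genes), and 1 higher and 21 lower in replicates 3 and 4 (12.6% and 12.2%). The Tgif2 OE label gave 25 higher and 5 lower in replicates 1 and 2 (30.4% and 7.06%), and 7 higher and 15 lower in replicates 3 and 4 (27.2% and 9.34%). The falls listed next had the same sign in both pairs, and some differed in size. Ndufb10 was -0.33 and -0.43 for the Tgif1 OE label and -0.59 and -0.74 for the Tgif2 OE label, Ndufb11 -0.41 and -0.48, and -0.39 and -0.47, and Cox7a1 -0.71 and -0.59 for the Tgif1 OE label. Ndufv3 was -0.18 and -0.30 for the Tgif1 OE label and -0.25 and -0.38 for the Tgif2 OE label, and Ndufv1 -0.19 and -0.31 for the Tgif1 OE label. For the Tgif2 OE label Ndufa3 was -0.19 and -0.34, and Ndufs1 -0.03 and -0.31; neither was called in replicates 1 and 2 alone. With the pairs as a random block 8 members passed for the Tgif1 OE label, all lower, in place of 14, and the calls of Atp5a1, Atp5b, Cox8a, Ndufa6, Ndufa9 and Ndufb1 were lost (adjusted p of 0.0681 to 0.218).

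Genes that feed, build or regulate the chain were read from lists. The counts below stand beside shares of all genes of 12.5% higher and 12.9% lower in the knockdown, 11.4% and 9.51% with the Tgif1 OE label, and 28.7% and 6.69% with the Tgif2 OE label, whose deposited values are shifted upward. Of 16 citric acid cycle and pyruvate dehydrogenase genes, which make the NADH and succinate that the chain uses, 6 were higher and 1 lower in the knockdown, and 1 higher and 5 lower with the Tgif1 OE label. Cs, citrate synthase, rose by 0.84 ± 0.06 (adjusted p = 3.44e-07) and Suclg2, a succinyl-CoA ligase subunit, by 0.64 ± 0.08 in Tgif1 KD, while Idh2 fell by 0.67 ± 0.07 (1.19e-05) and Pdha1, of pyruvate dehydrogenase, by 0.43 ± 0.09 with the Tgif1 OE label. The medians of this list were 0.23 and -0.11, beside -0.05 and 0.01 for all genes. The difference of the changes passed for 7 upward and 1 downward, led by Idh2 (1.28 ± 0.12), beside 13.0% and 14.6% of all genes.

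Etfdh, which passes electrons from fatty acid oxidation to coenzyme Q, rose by 1.41 ± 0.14 (adjusted p = 3.09e-06) in Tgif1 KD, and fell by 0.41 ± 0.10 (0.00681) with the Tgif1 OE label and by 0.52 ± 0.10 (7.14e-04; -0.64 relative to the median) with the Tgif2 OE label. Etfb, a subunit of its electron donor, rose by 0.35 in Tgif1 KD and fell by 0.50 with the Tgif1 OE label and by 0.51 with the Tgif2 OE label (-0.63 relative to the median). Of the 6 genes in their list, these included, 2 were higher and 1 lower in the knockdown. Of the assembly factors 4 of 15 for complex IV (led by Pet100 at -0.84 and Cox20 at -0.81) and 3 of 8 for complexes II and III (led by Ttc19 at -0.96 and Sdhaf1 at -0.89) fell in the knockdown, with 0 higher in both lists. The Tgif1 OE label gave 1 higher and 1 lower in each of them, and the Tgif2 OE label 5 higher and 1 lower for complex IV and 1 higher and 2 lower for complexes II and III. Sdhaf1, needed for the iron-sulfur clusters of Sdhb, fell with both labels as well, by 0.33 (0.00149) with the Tgif1 OE label and by 0.65 (4.09e-06; -0.77 relative to the median) with the Tgif2 OE label. Of 9 complex I assembly factors 1 was higher and 1 lower in the knockdown and 3 were lower with the Tgif1 OE label. With the Tgif2 OE label 3 were higher and 2 lower. The knockdown change minus the Tgif1 OE change passed for 5 upward, among them Ndufaf5 (0.66) and Foxred1 (0.58), and 1 downward. Of all genes 13.0% passed upward and 14.6% downward.

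Of 10 genes of mitochondrial DNA transcription and replication 4 were lower in the knockdown, among them Tfam, which packages that DNA (-0.36 ± 0.07, adjusted p = 0.00114). Among 9 nuclear regulators of the chain Esrra rose (0.53) and Nrf1 fell (-0.31) in Tgif1 KD, and Ppargc1b (-0.62 ± 0.08, 5.71e-05) and Nrf1 (-0.26) fell with the Tgif1 OE label. Mitochondrial ribosomal protein genes went 5 higher and 18 lower of 74 in the knockdown, 4 higher and 10 lower with the Tgif1 OE label and 24 higher and 6 lower with the Tgif2 OE label, where their median was -0.01 relative to that of all genes. The other large complexes serve as a comparison. Of 39 proteasome genes 2 were higher and 13 lower in the knockdown and 17 higher and 1 lower with the Tgif2 OE label. Of 48 cytosolic ribosomal protein genes 1 was higher and 2 lower in the knockdown and 7 higher and 2 lower with the Tgif2 OE label. Of 18 glycolysis genes 2 were higher and 2 lower in the knockdown and 3 higher and 6 lower with the Tgif1 OE label.

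Further lists covered cofactors, import and protection. Of 8 genes of coenzyme Q synthesis 3 were higher and 1 lower in the knockdown (led by Coq5 at 0.57 and Coq10a at 0.47), 1 higher and 2 lower with the Tgif1 OE label (led by Coq9 at -0.36 and Coq6 at -0.33) and 2 higher and 4 lower with the Tgif2 OE label (led by Coq8a at -0.58, or -0.70 relative to the median). Of 12 mitochondrial chaperone and import genes Hspa9, the matrix Hsp70, rose by 0.40 in Tgif1 KD and fell by 0.25 with the Tgif1 OE label. This list had 1 higher and 1 lower in the knockdown, 0 and 2 with the Tgif1 OE label and 6 and 0 with the Tgif2 OE label. Of 6 carriers and porins none (0) was called in the knockdown, 2 were lower with the Tgif1 OE label, Vdac1 (-0.22) and Slc25a5 (-0.17), and 1 was higher with the Tgif2 OE label, Slc25a4 (0.21; 0.09 relative to the median). Of 5 mitochondrial antioxidant genes Prdx3 rose (0.43) and Gpx4 fell (-0.33) in Tgif1 KD, and Sod2, the superoxide dismutase of the matrix, fell with the Tgif1 OE label (-0.58, adjusted p = 1.69e-06). Tmem70, an assembly factor of ATP synthase, rose by 0.56 with the Tgif1 OE label and by 0.45 (0.33 relative to the median) with the Tgif2 OE label, and was the 1 call among 2 such genes.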

How the data were processed

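RNA from mouse J1 ES cells was read on 16 arrays in 5 groups. The authors deposited log2 signals for each probe set; per the submitters' processing notes RMA was used, and they also name limma for the Tgif2 OE arrays. Neither versions nor joint normalization of all arrays are stated there. Of 22690 probe sets 20380 carried 1 gene symbol, and where a gene had several the one of highest mean stood for it, which gave 12393 genes; 43 of the 78 members had more than 1. A further 7 probe sets of subunit genes carried several symbols and were left out. Deposited values were used without a level filter. Group means over the 16 arrays were fitted in limma 3.58.1 (R 4.3.3), calling adjusted p under 0.05 by Benjamini-Hochberg over all genes. The method was tested on simulated data with independent noise on each array. Those data held neither the replicate pairs nor the shift of the Tgif2 OE columns, so the test does not cover their effect on the calls. Values after ± are standard errors.

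Members, lists and the naming rule were chosen with earlier results of these data known. The rule names the 5 largest rises and 5 largest falls past the threshold in each comparison, the largest change in each complex, the 3 highest and 3 lowest means, members called in both Tgif1 comparisons, isoform pairs, c subunit and Sdh genes, members with disagreeing probe sets, and up to 2 genes per list; other members appear to complete counts. In the overexpression arm deviations of arrays that share a replicate number, which the labels give, correlated at 0.32 to 0.56 over 12 pairs, so the number was also fitted as a block; an array's own number was its best match in 2 cases. In the knockdown arm the correlation was -0.0044. The number of arrays limits precision. Alternatives were other scalings, the mean of probe sets, a level filter, other variance settings, the compared groups only, single arrays left out, blocks and replicate pairs. The promoter windows are the RefSeq sequences before the gene start, and figures were drawn with matplotlib 3.10.9.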

Additional observations from a re-analysis of the deposited data

Results flagged for a closer look

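In groups of 4 arrays the members named in the text were checked for a value standing far from the other 3, by its gap over the range of the group (Dixon's 95% limit). Of 123 such groups of 41 members 3 were past it, where chance gives about 1 in 20. Atp5mpl was 12.25 log2 on Tgif2 OE 3, with the other 3 arrays of that group between 12.44 and 12.48. Ndufb6 was 11.94 on Tgif2 OE 4, with the others between 12.09 and 12.12. Ndufs1 was 11.21 on Tgif1 OE 1, with the others at 11.16.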

How the results depend on the processing

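Over values of single named members, 1009 of 1116 kept direction and side of the threshold when 1 array was left out, 99 lost and 8 gained a call; under the other alternatives 1238 of 1400 did, with 66 lost, 92 gained and 4 reversed. The reversed ones were Uqcrq (-0.0745) and Ndufs4 (-0.38) in the knockdown with the mean of probe sets, and Atp5g2 with the Tgif2 OE label after quantile normalization (-0.0305) and with the mean of probe sets (-0.0727); the cause was not tested. Leaving out 1 array gave 4 to 8 members called in the knockdown, 10 to 15 for the Tgif1 OE label, 17 to 21 for the Tgif2 OE label, 7 to 11 between the labels and 11 to 21 for the difference of changes, with medians of 0.0044 to 0.0217, -0.0671 to -0.0285, 0.029 to 0.0527, -0.1153 to -0.094 and -0.0084 to 0.0514. The knockdown called 26 with only the compared groups fitted and 24 with the replicate block. Replicate numbers do not pair the knockdown arm. The block also takes the replicate split of the overexpression arm out of the spread that all 5 groups share. Both fits thus leave that split out of the knockdown SEs, while the main fit includes it. The knockdown median was 0.0296 after quantile normalization and -0.0223 with the mean of probe sets. The Tgif1 OE label called 8 with only the compared groups, 22 in replicates 3 and 4, 8 with the replicate pair as a random block and 25 with it as a fixed term, an alternative chosen after seeing the data; that term gave 35 for the Tgif2 OE label, 29 between the labels and 35 for the difference. The Tgif2 OE median was -0.0828 after quantile normalization, -0.0879 after centring, 0.12 in replicates 1 and 2 and -0.0271 in 3 and 4. Between the labels 6 were called after quantile normalization, 5 after centring, 7 with only the compared groups, 10 in replicates 3 and 4 and 2 with the random block, with medians of 0.0376 after quantile normalization, -0.0034 after centring, -0.12 in replicates 1 and 2 and -0.0699 in 3 and 4. The difference called 37 with replicates 1 and 2 and 34 with 3 and 4. The replicate block called 18, 30, 23 and 27 in the comparisons of the overexpression arm (14, 21, 16 and 19 without it). It lost none of those calls, and in those comparisons changed no other call described than those given beside them. Dim probe sets, such as those of Cox4i2 and Cox8b, have little signal over background and limit what can be seen of those isoforms.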
